A study of Mus musculus with 76 samples.

Results

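The immunoglobulin variable segments of the kappa and heavy chain loci were followed across sorted mouse blood cells. They were chosen by symbol, as every row whose symbol begins with Igkv or Ighv and a digit. This gave 86 of the 37980 rows of the expression table, 59 Igkv and 27 Ighv. Of the segments, 76 were above 0 in at least 1 library, and 68 (53 Igkv and 15 Ighv) passed the filter on low values and were tested. The other 18 stayed below it, and 2 Igkv and 8 Ighv segments were listed at 0 in every library.

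The study asked whether the transcription factor Hoxb5 turns B lineage precursors into T cells. Its cells were from C57BL/6 mice, and 75 libraries of 1000 sorted cells each were used here. Induced cells began as pro-/pre-B cells of the bone marrow, which were transduced with a Hoxb5 virus in culture, sorted again and transplanted into sublethally irradiated recipients. They were later sorted from the recipients' bone marrow as early T progenitors (BM-iETP, 2 libraries). From the recipients' thymus came early T progenitors (Thy-iETP, 3), the double negative stages iDN1 (4), iDN2 (2), iDN3 (3) and iDN4 (4), double positive cells (iDP, 3) and single positive cells (iCD4-SP and iCD8-SP, 4 each). Natural cells of the same stages had not been given the virus. They were BM-ETP (3), Thy-ETP (2), DN1 (3), DN2 (3), DN3 (2), DN4 (3), DP (4), CD4-SP (3) and CD8-SP (3). The remaining natural groups were mature B cells (4), mature T cells (3), mature myeloid cells (2), multipotent progenitors (MPP, 4), hematopoietic stem cells (HSC, 4) and untransduced pro-/pre-B cells (3). Of the deposited pro-/pre-B libraries, number 3 held the same value as number 1 in all 37980 rows and was left out. Ages, and whether replicates came from separate animals, are not given in the labels, so p-values measure only the spread between these samples, which may be technical. The irradiated recipients keep cells of their own, and the labels do not say how donor cells were told apart from them.

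A B cell builds each antibody gene by cutting and joining its DNA. At the heavy chain locus on chromosome 12 and the kappa locus on chromosome 6, the enzymes Rag1 and Rag2 join 1 of many V segments to the short segments before the constant gene, and the joined V segment is then transcribed strongly. The joined DNA is passed on to daughter cells, and usually 1 allele gives protein, so a population from many B cells uses many V segments while the descendants of a single cell share theirs. T cells rearrange receptor genes at other loci with the same enzymes. Because the joining cannot be undone, V segment RNA is used to follow B lineage ancestry, although unjoined segments can also give some RNA.

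The 8 segments shown next led their chain in the libraries that the results turn on. Each line gives the last 60 coding bases, and the capitals mark the codon of the conserved cysteine near the joint. In the kappa lines 23 to 25 coding bases follow this codon, and in the heavy chain lines 6 to 8.
Igkv2-137: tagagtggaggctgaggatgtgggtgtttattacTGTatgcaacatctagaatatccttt
Igkv16-104: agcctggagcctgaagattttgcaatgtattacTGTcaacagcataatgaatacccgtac
Igkv8-24: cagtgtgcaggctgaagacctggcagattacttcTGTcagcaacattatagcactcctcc
Igkv5-39: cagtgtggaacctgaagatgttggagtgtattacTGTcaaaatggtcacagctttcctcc
Igkv4-57: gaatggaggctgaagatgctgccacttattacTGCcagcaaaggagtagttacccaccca
Ighv4-1: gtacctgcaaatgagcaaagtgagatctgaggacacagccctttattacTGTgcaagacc
Ighv3-6: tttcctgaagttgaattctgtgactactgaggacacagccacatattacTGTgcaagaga
Ighv1-47: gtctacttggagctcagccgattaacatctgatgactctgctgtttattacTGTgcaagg

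The sequences are GENCODE vM21 transcripts on GRCm38, a later build than that of the deposited values. In that annotation Igkv2-137 lies at chr6:67555497-67556216 and Igkv16-104 at chr6:68425575-68426072, both on the plus strand. Igkv8-24 (chr6:70216858-70217421), Igkv5-39 (chr6:69900424-69900977) and Igkv4-57 (chr6:69575975-69576500) lie on the minus strand. The heavy chain segments Ighv4-1 (chr12:113948282-113948796), Ighv3-6 (chr12:114288152-114288582) and Ighv1-47 (chr12:114991108-114991580) are on the minus strand as well. All 8 are annotated as functional V genes, and the bases shown lie in the V exon.

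How far a segment can be told from its relatives varied. No run of 50 coding bases of Igkv2-137, Igkv16-104, Igkv8-24, Igkv5-39 or Ighv1-47 occurs in another annotated segment, and their nearest relatives are 87.8%, 73.9%, 91.0%, 90.5% and 84.0% identical. Of the 50-base runs of Igkv4-57, 50.8% occur in another segment, and of those of Ighv4-1, 32.2%. The nearest relative of Ighv4-1, Ighv4-2, is 96.3% identical and has no row under its symbol, so the values of Ighv4-1 and Igkv4-57 are uncertain in this respect. The annotation lists 345 segments, of which 259 have no row under their symbol, and 5064 of the 37980 IDs have no symbol. Every total and share below is therefore over the 86 rows and not over the whole repertoire.

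**Figure D1:**
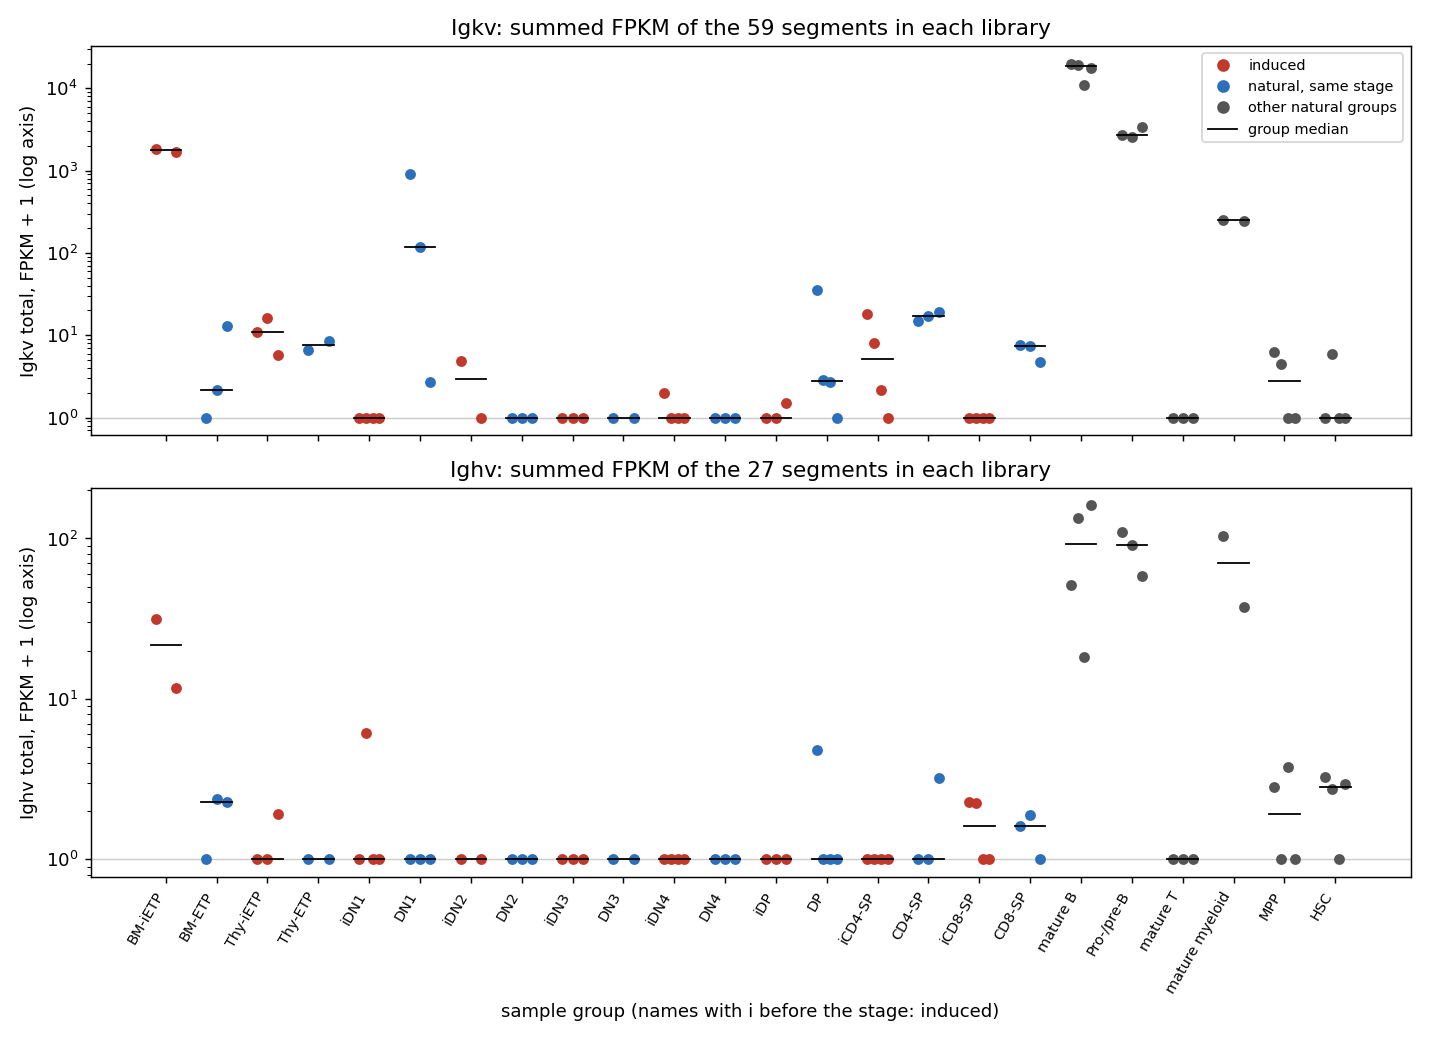
Summed FPKM plus 1 of the Igkv (upper) and Ighv (lower) segments on log axes, with 1 point per library and a line at each group median. Mature B cells lie highest for Igkv, between 11063 and 19973 FPKM, and the BM-iETP libraries, at 1828 and 1690.0 FPKM, lie near pro-/pre-B cells and far from every other induced group.

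Kappa segment RNA was concentrated in few groups. FPKM is a level scaled to transcript length and library size. The Igkv total was 0 in 36 of 75 libraries, at least 10 FPKM in 20 and at least 100 FPKM in 13. BM-iETP had 1828 and 1690.0 FPKM, against 0, 1.17 and 12.1 FPKM in BM-ETP. The total was 19973, 19069, 11063 and 17908 FPKM in mature B cells, and 2734, 2593 and 3404 FPKM in pro-/pre-B cells. Mature myeloid cells had 252 and 246 FPKM. All 4 iDN1 libraries were listed at 0, whereas natural DN1 cells had 903, 117 and 1.71 FPKM. All mature T libraries were also at 0. In bulk RNA, fewer cells of a type and less RNA per cell cannot be told apart.

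Past the BM-iETP stage the induced cells held little V segment RNA. Of the 27 induced thymic libraries, 18 had an Igkv total of 0, and the highest total was 17.0 FPKM in 1 iCD4-SP library. Of the 23 natural libraries of the same thymic stages, 9 were at 0. The iDN3 and iCD8-SP groups were at 0 throughout, as were natural DN2, DN3 and DN4. Ighv totals were 0 in 23 of the 27 induced thymic libraries and in 19 of the 23 natural ones. Among induced thymic libraries the highest Ighv total was 5.12 FPKM, in 1 iDN1 library, and came from Ighv1-47 alone.

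Values near 1 FPKM rest on very few fragments. The smallest value above 0 in a library had a median of 1.69 FPKM for Igkv over 39 libraries and of 1.87 FPKM for Ighv over 26. Depth in fragments is not given in the table, so no interval is given, and a segment listed at 0 was not detectable at this depth. Shares are given for libraries with a chain total of at least 10 FPKM.

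Averaged over the 9 stages with an induced and a natural group, the difference in Igkv level did not pass the test and depended on which stages were included. Induced minus natural, the mean difference in log2(Igkv total + 1) was -0.18 (29 induced and 26 natural libraries), and induced cells were higher at 4 stages and lower at 4. A two-sided permutation test with labels shuffled within stages gave p = 0.796, and p = 0.796 after Benjamini-Hochberg adjustment over 4 tests. Without the BM stage the mean difference was -1.35 with an adjusted permutation p of 0.00944, and without the DN1 stage it was 0.55. Each of the 9 stages was left out in turn, and only the run without the BM stage passed. Its adjustment covers the 4 tests of that run and not the choice among runs. The number of Igkv segments at 1 FPKM or more differed by 0.741 (adjusted p = 0.533, permutation test), the log2 Ighv total by 0.37 and the number of Ighv segments by 0.167 (adjusted p = 0.533 in both permutation tests).

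Single pairs of groups were also compared by a two-sided exact permutation test on log2(total + 1), with Benjamini-Hochberg adjustment over 22 tests. With so few libraries per group, no pair could pass 0.05 after this adjustment, whatever its values. The adjusted p-values therefore decide nothing about any pair. The Igkv totals did not overlap in 5 of the 11 pairs. Mature B minus pro-/pre-B cells was 2.52, iDN1 minus DN1 was -6.05 and iCD8-SP minus CD8-SP was -2.69, each with exact p = 0.0286, the smallest that 4 against 3 libraries allow, and adjusted p = 0.210. BM-iETP minus BM-ETP was 9.17 and BM-iETP minus pro-/pre-B cells was -0.72, each with exact p = 0.1, the smallest that 2 against 3 libraries allow, and adjusted p = 0.314.

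**Figure D2:**
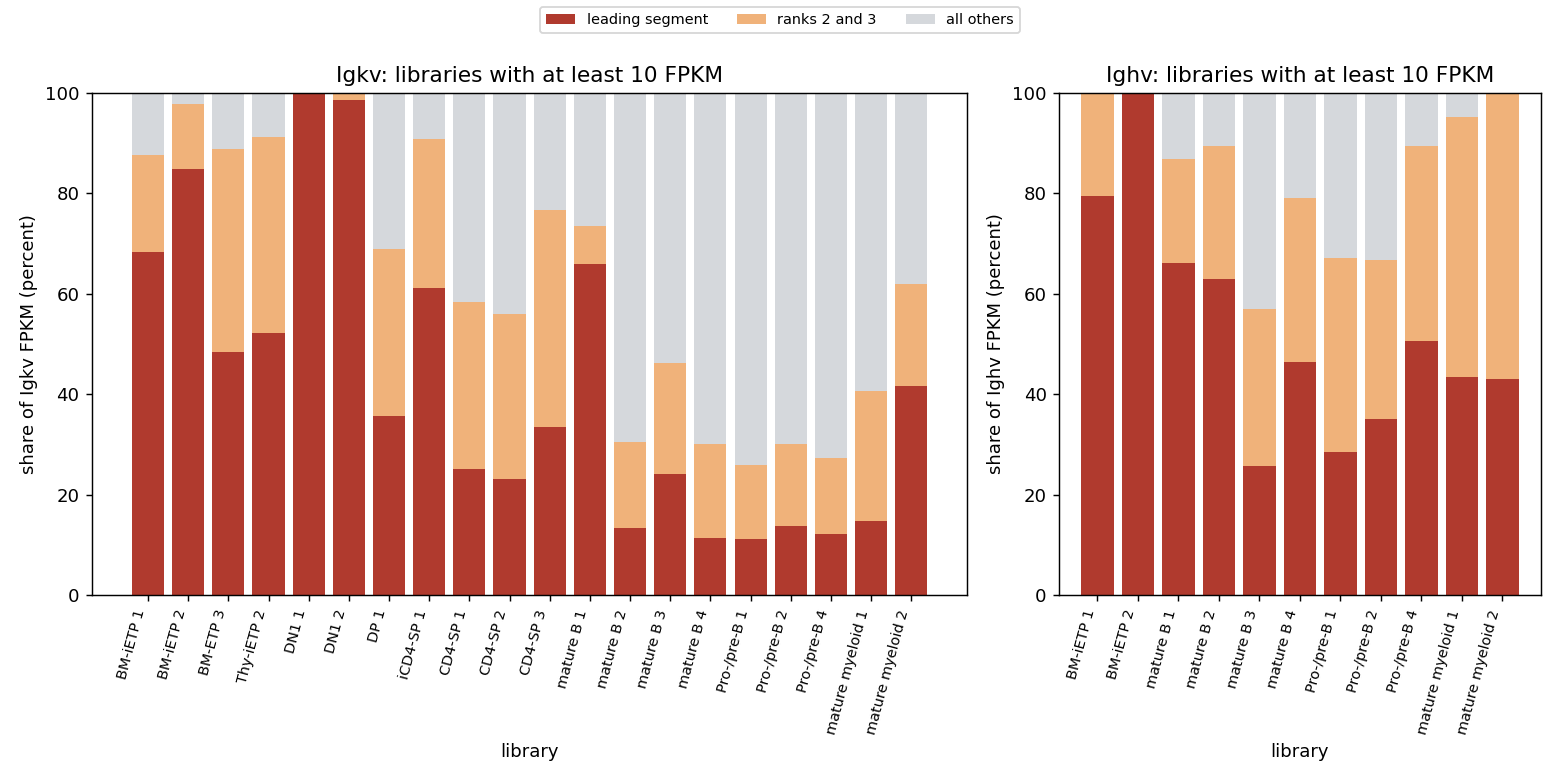
Share of the chain's FPKM held by the leading segment, by ranks 2 and 3, and by all others, in each library with at least 10 FPKM of Igkv (left) or Ighv (right). Igkv2-137 leads both BM-iETP libraries with 68.3% and 84.9%, while no segment holds more than 13.8% in a pro-/pre-B library.

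The BM-iETP libraries used few kappa segments. They had 17 and 11 Igkv segments at 1 FPKM or more, and Igkv2-137 held 68.3% and 84.9% of the Igkv total. Their effective numbers of segments were 2.04 and 1.37. The effective number is the inverse of the summed squared shares, and it equals the count when all segments are used alike. Igkv2-137 had 1249 and 1435 FPKM in BM-iETP, against 167, 132 and 142 FPKM in pro-/pre-B cells, and was listed at 0 in the 3 BM-ETP libraries. Igkv4-68 was second in both BM-iETP libraries, with 188 and 169.8 FPKM, against 48.5, 34.4 and 3.96 FPKM in pro-/pre-B cells. Groups did not overlap for either segment.

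Pro-/pre-B cells used kappa segments broadly. They had 45, 45 and 43 Igkv segments at 1 FPKM or more, and effective numbers of 20.4, 18.0 and 19.0, all above both BM-iETP values. The leading segment, different in each library, was Igkv6-32 with 11.1%, Igkv11-106 with 13.8% and Igkv8-27 with 12.2% of the Igkv total. Igkv11-106 is annotated as a pseudogene.

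Among the Ighv rows, 1 segment also led BM-iETP. The total of these rows was far below Ighm, the constant gene of IgM, which was at 2139 and 2571 FPKM. Ighm was also at 543, 555 and 479 FPKM in mature T cells, whose Ighv totals were 0. Its level is therefore not a measure of joined heavy chain RNA alone. Only 27 of the 185 annotated Ighv segments have a row. The segment that leads the heavy chain as a whole therefore cannot be told. The Ighv total was 30.4 and 10.8 FPKM in BM-iETP, against 108, 90.2 and 57.5 FPKM in pro-/pre-B cells. Ighv4-1 supplied 79.5% and 100% of it, with 24.2 and 10.8 FPKM, and was listed at 0 in the other 73 libraries, pro-/pre-B cells included. Pro-/pre-B libraries were led by Ighv3-6 (28.4%), Ighv8-12 (35.1%) and Ighv1-47 (50.6%), all at 0 in BM-iETP. At 1 FPKM or more, BM-iETP had 3 and 1 Ighv segments and pro-/pre-B cells had 12, 10 and 5.

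In a fit over all 75 libraries, most of the tested segments differed between BM-iETP and pro-/pre-B cells. With limma on log2(FPKM + 1) and Benjamini-Hochberg adjustment over 17416 genes, 4 of the 68 segments rose and 48 fell, which is 76.5%, beside 15.5% of all genes tested (8.10% higher and 7.40% lower). Segments could pass the filter on low values through the groups compared alone, as Ighv4-1 did through the 2 BM-iETP libraries. The filter thus fixes part of the segments' share. The segments that rose were Igkv2-137 (log2 fold change 3.18 ± 0.50 SE, limma adjusted p = 1.77e-06), Igkv4-68 (3.13 ± 0.41), Igkv3-10 (2.19 ± 0.49) and Ighv4-1. Igkv3-10 had 164 and 47.3 FPKM in BM-iETP, against 40.2, 61.7 and 1.93 FPKM in pro-/pre-B cells, and these overlap. For Ighv4-1 the fitted error is mostly the spread of libraries listed at 0, and no fold is given against a group at 0. The other segments share this limit in part. The fit gives each segment 1 spread over all 75 libraries, and no segment was above 0 in more than 20 of them. Fitted errors and p-values of segments can therefore be too small. With only these 2 groups in the fit, 26 segments were called.

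The 5 segments with the lowest fold changes were at or near 0 in BM-iETP. Igkv11-106 was listed at 0 in both BM-iETP libraries, against 159.6, 358 and 286 FPKM in pro-/pre-B cells. Igkv16-104 was at 0 in BM-iETP, against 127, 127 and 210.2 FPKM. Igkv8-16 was at 0 as well, against 126, 107 and 179 FPKM, and Igkv8-21 was at 0, against 121, 42.7 and 129 FPKM. Igkv6-32 had 2.25 and 0 FPKM in BM-iETP, against 304, 156 and 228 FPKM in pro-/pre-B cells. None of these 5 segments overlapped between the groups.

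Against natural BM-ETP, 15 segments rose in BM-iETP and none fell, which is 22.1% of 68, beside 31.1% of all genes tested (14.4% higher and 16.8% lower). The segments' share lies above that of genes called higher and below that of genes called in either direction. Ighv4-1 passed the filter through BM-iETP alone, so the filter fixes part of this share too. Igkv2-137, Igkv4-68, Igkv3-10 and Ighv4-1 were listed at 0 in every BM-ETP library, so no fold is given. Igkv3-7 had 84.8 and 0 FPKM in BM-iETP and was at 0 in BM-ETP, so its call rests on 1 library. With BM-iETP library 1 left out 7 segments were called, and with only these 2 groups in the fit 9 were.

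The other immunoglobulin genes in the BM-iETP libraries can be set beside the V segments. Ighg2b, the constant region gene of an IgG class, had 1976 and 2211 FPKM in BM-iETP, against 31.5, 28.8 and 14.2 FPKM in pro-/pre-B cells (log2 fold change 6.42 ± 0.58, limma adjusted p = 1.76e-13). Igkc, the kappa constant gene, had 4039.8 and 3680.3 FPKM, against 10455, 10820.4 and 13421 FPKM, and did not pass (-1.58 ± 1.42, limma adjusted p = 0.599). Ighm, the constant gene of IgM, fell (-1.01 ± 0.35, limma adjusted p = 0.0372). Lambda light chain genes fell further. Iglc2, a lambda constant gene, was listed at 0 in both BM-iETP libraries, against 464.6, 859 and 877 FPKM in pro-/pre-B cells. Of lambda V genes, 3 of 3 fell, beside 15.5% of all genes tested (7.40% lower).

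Genes of the rearrangement stage were also detected. Rag1 and Dntt, which adds untemplated bases at the joints, fell in BM-iETP relative to pro-/pre-B cells (-1.95 ± 0.35 and -1.71 ± 0.18), and Rag2 did not pass. The surrogate light chain pairs with the heavy chain before a light chain is made. Of 4 genes listed for it, Vpreb2 rose (3.05 ± 0.27) and 3 did not pass, beside 15.5% of all genes tested. Vpreb3, which is on that list, also had 568 to 883 FPKM in mature B cells, where Igll1 and Vpreb2 were listed at 0. Cd79a, which carries the signal of the surface antibody into the cell, had 372 and 304 FPKM in BM-iETP, 0, 0.293 and 0 FPKM in BM-ETP and 1003, 847 and 858 FPKM in pro-/pre-B cells. Of 7 B lineage markers, 6 rose and 1 fell in BM-iETP against BM-ETP, beside 31.1% of all genes tested. Against pro-/pre-B cells 5 of the 7 fell and 0 rose, beside 15.5% of all genes tested. The 7 T lineage markers summed to 6.94 and 15.9 FPKM in BM-iETP, with Cd3e at 0, and to 5.21 to 10.7 FPKM in BM-ETP. Of these 7, 2 rose and 1 fell in BM-iETP against BM-ETP. The BM-iETP label of an early T progenitor therefore stands beside B lineage RNA, and how far B lineage cells in the sort bear on the V segment levels was not tested.

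The segments that led BM-iETP were rarely seen in thymic cells of either source. Igkv2-137 was above 0 in 16 of the 75 libraries. Among the 27 induced thymic libraries it was above 0 in 1, an iDN2 library with 3.88 FPKM in which Igkc was listed at 0. Among the 23 natural libraries of the same thymic stages it was above 0 in 3, at 2.15 FPKM in 1 DP, 2.19 FPKM in 1 CD4-SP and 0.918 FPKM in 1 CD8-SP library. It was also seen at 4.98 FPKM in 1 HSC library with Igkc at 0, and at 1.75 and 1.67 FPKM in 2 MPP libraries. None of the natural cells had been transduced. Igkv4-68 was above 0 in 1 induced thymic library, an iCD4-SP library with 1.11 FPKM, and in no natural one, and Ighv4-1 was above 0 in neither.

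**Figure D3:**
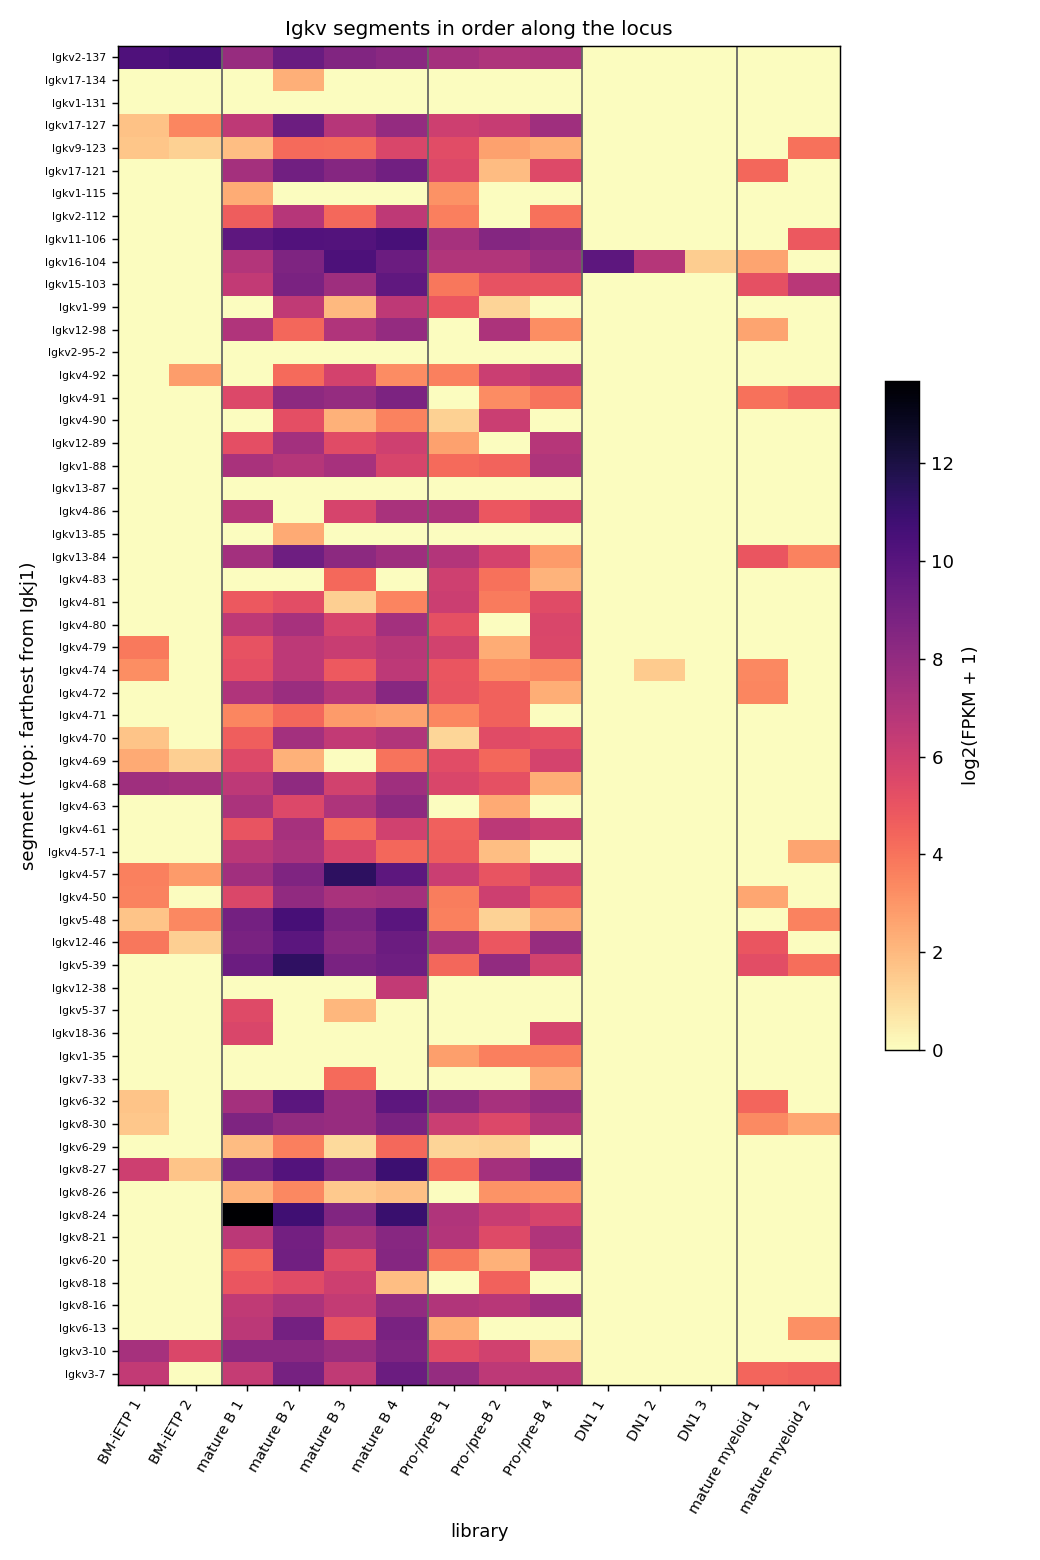
Level of the 59 Igkv segments, as log2(FPKM + 1), in the 14 libraries of 5 groups, with segments ordered along the locus from the one farthest from the J segment Igkj1 at the top. Igkv2-137 stands out in the first row of both BM-iETP libraries and Igkv16-104 in the natural DN1 libraries, while mature B and pro-/pre-B libraries are filled along the whole locus.

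The segments that led BM-iETP and natural DN1 cells lie in the far part of the kappa locus. Igkv2-137 is the farthest of the 59 from Igkj1, at 3166 kb in GRCm38, and Igkv16-104 lies at 2296 kb, whereas Igkv8-24 lies at 505 kb. Segments farther than the median distance of 1479 kb supplied 69.7% and 85.9% of the Igkv FPKM in BM-iETP. They supplied 100% in DN1 libraries 1 and 2, 51.7% and 72.5% in mature myeloid cells, 12.8%, 31.1%, 43.0% and 34.3% in mature B cells, and 45.7%, 46.0% and 43.9% in pro-/pre-B cells. The second myeloid library thus lay above the first BM-iETP library. The BM-iETP shares follow largely from Igkv2-137 itself, and no test of position was made.

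Mature B cells held more kappa RNA than pro-/pre-B cells. They had 47, 48, 49 and 48 Igkv segments at 1 FPKM or more, against 45, 45 and 43 in pro-/pre-B cells. With limma on log2(FPKM + 1), 35 of the 68 segments rose and 8 fell in mature B relative to pro-/pre-B cells, which is 63.2%, beside 25.0% of all genes tested (11.5% higher and 13.4% lower). Of the 53 Igkv segments tested, 34 rose and 5 fell, and of the 15 Ighv segments, 1 rose and 3 fell. Segments could again pass the filter through the groups compared alone, as Igkv1-35 did through the 3 pro-/pre-B libraries, which fixes part of the share. With only these 2 groups in the fit, 17 segments were called.

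Igkv5-48 had 509.7, 1516, 423 and 960.4 FPKM in mature B cells, against 11.3, 1.42 and 4.11 FPKM in pro-/pre-B cells (log2 fold change 7.14 ± 0.45, limma adjusted p = 5.43e-20). Igkv6-13 (6.61 ± 0.49), Igkv4-63 (6.19 ± 0.29), Igkv4-91 (5.18 ± 0.44) and Igkv8-24 (4.67 ± 0.52) also rose without overlap. The errors and the p-value can be too small here as well, since each segment was at 0 in most libraries of the fit. Among those that fell, Igkv1-35 was listed at 0 in all mature B libraries, against 5.80, 11.9 and 11.3 FPKM in pro-/pre-B cells. Ighv3-8 had 1.33, 0, 0 and 0 FPKM in mature B cells, against 30.0, 1.42 and 8.22 FPKM (-2.84 ± 0.29). Igkv4-69 (-2.23 ± 0.45), Igkv4-92 (-2.09 ± 0.54) and the pseudogene Igkv4-83 fell with overlapping values. Igkv4-83 averaged 4.72 ± 9.43 FPKM in mature B cells (SD, n = 4) and 27.7 ± 32.1 FPKM in pro-/pre-B cells (SD, n = 3).

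The mature B libraries differed in how evenly they used segments. Igkv8-24 held 65.8% of the Igkv total in library 1, at 13151 FPKM, against 1724, 377 and 2046 FPKM in libraries 2 to 4. Igkv4-57 led library 3 with 24.1%, Igkv5-39 led library 2 with 13.4% and Igkv8-24 led library 4 with 11.4%. The effective numbers were 2.27, 18.2, 10.5 and 19.3 in libraries 1 to 4. Jchain, which links secreted IgM and IgA and is high in plasma cells, had 501, 17.0, 384.5 and 12.6 FPKM in the same order, so it was high in libraries 1 and 3. The other plasma cell markers named here followed that order in part or not at all. Mzb1, a chaperone of antibody assembly, had 640.1, 613, 454 and 513 FPKM, and Xbp1, a regulator of secretion, had 99.7, 65.5, 51.3 and 69.8 FPKM. Like Jchain, both were highest in library 1, but both were lowest in library 3. Sdc1, a plasma cell surface protein, was lowest in library 1, at 1.46 FPKM against 4.22, 4.39 and 2.15 FPKM in libraries 2 to 4. The summed level of 7 plasma cell markers ran from 624 FPKM in library 4 to 1272 FPKM in library 1, and its part in the shares was not tested.

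Within the Ighv rows, the leading segment differed among mature B libraries. Here too the Ighv totals were far below Ighm, which was at 3817 to 4570 FPKM. The Ighv totals were 49.9, 134, 17.3 and 160.2 FPKM. Ighv1-18 led library 1 (66.2%), Ighv1-47 led libraries 2 and 3 (63.0% and 25.6%) and Ighv1-49 led library 4 (46.4%). Of the 50-base runs of Ighv1-18, 35.8% occur in another segment, so its value is uncertain. Ighv1-49 was at 74.4 FPKM in library 4 and at 0 in the other 3, and Ighv3-6 was at 32.3 FPKM there, against 3.92, 3.66 and 3.14 FPKM in the other 3.

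The BM-iETP libraries were more like each other than like pro-/pre-B cells in which Igkv segments they used. Across the 59 segments, Pearson's r on log2(FPKM + 1) was 0.782 between the BM-iETP libraries and 0.142 to 0.390 over the 6 pairs of a BM-iETP and a pro-/pre-B library. It was 0.756 to 0.873 within mature B cells and 0.468 between the myeloid libraries. Within pro-/pre-B cells it was 0.589 to 0.646, close to the 0.529 to 0.643 over the 12 pairs of a mature B and a pro-/pre-B library, so these groups were not set apart by it. These are descriptions across segments, which are not independent replicates and share the libraries' depth. The BM-iETP libraries shared 3 of their 5 leading Igkv segments with each other and 0 to 2 with a pro-/pre-B library.

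No kappa segment was detected in iDN1 cells, and a single one dominated in natural DN1 cells. Igkv16-104 was listed at 0 in the 4 iDN1 libraries, against 903, 115 and 1.71 FPKM in the DN1 libraries. It held 100% and 98.5% of the Igkv total in DN1 libraries 1 and 2, and no share is given for library 3, whose total was under 10 FPKM. In limma it was the 1 segment of 68 that differed between iDN1 and DN1, and it fell (1.47% of segments, beside 18.8% of all genes tested, 9.90% higher and 8.93% lower). With only these 2 groups in the fit it did not pass. Igkv16-104 was also above 0 in mature B and pro-/pre-B cells and in 1 myeloid library, and in no other library.

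The kappa constant gene was also lower in iDN1, but DN1 libraries 1 and 2 stood in a different order for it than for Igkv16-104. Igkc had 0, 0, 7.52 and 2.62 FPKM in iDN1, against 1741, 3446 and 89.5 FPKM in DN1 (log2 fold change -8.44 ± 1.18, limma adjusted p = 1.25e-07). Igkc was highest in DN1 library 2 and Igkv16-104 in DN1 library 1, and both were lowest in DN1 library 3. Jchain had at most 3.10 FPKM in iDN1, against 56.7, 134 and 5.71 FPKM in DN1 (-4.10 ± 0.78). Of 6 plasma cell markers tested, 3 fell in iDN1 (Jchain, Sdc1 and Prdm1) and 1 rose (Irf4), beside 18.8% of all genes tested (9.90% higher and 8.93% lower). The summed level of all 7 was 68.1 to 81.0 FPKM in iDN1, against 76.9 to 225 FPKM in DN1. Ms4a1, a B cell surface protein, was at 0 in every DN1 library. Of 5 genes of plasmacytoid dendritic cells, 2 fell in iDN1 (Siglech and Irf8) and 1 rose (Ccr9), beside the same 18.8% of all genes. Siglech, a surface receptor of these cells, had 0, 0, 0 and 0.13 FPKM in iDN1, against 65.9, 72.3 and 100.2 FPKM in DN1 (-6.26 ± 0.61, limma adjusted p = 2.53e-12). The part of plasma cells or plasmacytoid dendritic cells in the Igkv16-104 level was not tested.

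**Figure D4:**
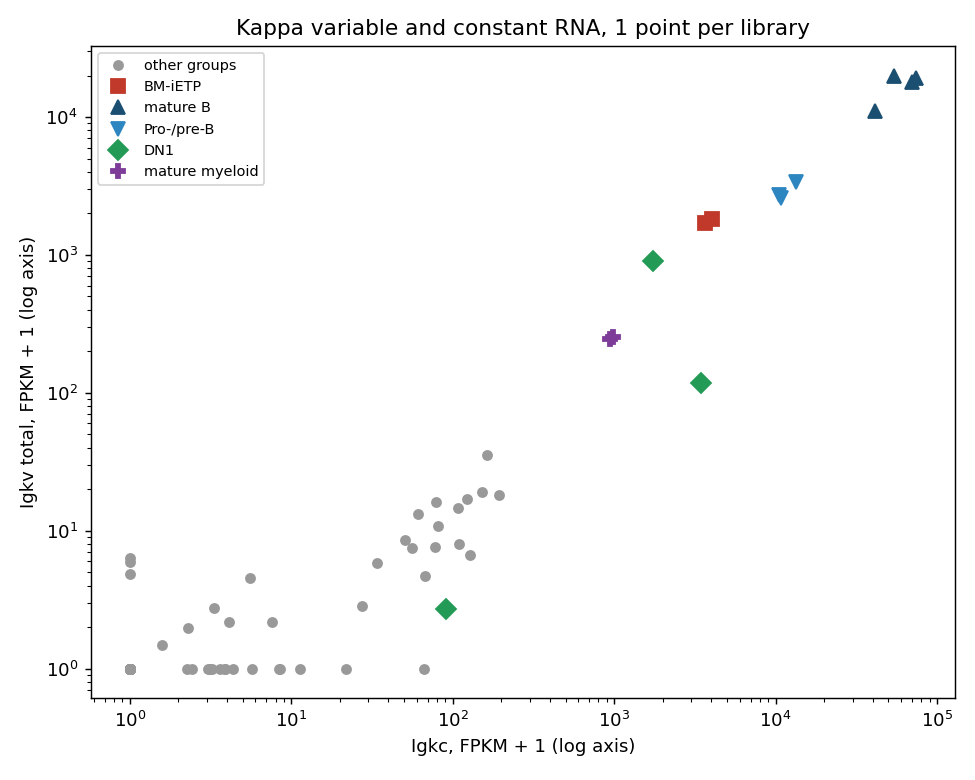
Igkv total against Igkc, both as FPKM plus 1 on log axes, with 1 point per library. The BM-iETP libraries have an Igkv total of 45.2% and 45.9% of Igkc, mature B and pro-/pre-B libraries one of 24.0% to 36.9%, and natural DN1 libraries lie on both sides of these.

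The Igkv total can be read against the constant gene that every joined kappa transcript carries. In BM-iETP it was 45.2% and 45.9% of Igkc. It was 36.9%, 25.8%, 26.8% and 25.6% in mature B cells and 26.1%, 24.0% and 25.4% in pro-/pre-B cells. In natural DN1 cells it was 51.9%, 3.40% and 1.91%. Among these groups DN1 library 1, both BM-iETP libraries and mature B library 1 had the highest ratios, and DN1 libraries 2 and 3 the lowest. Segments with no row count toward Igkc and not toward the total, and their part in these ratios was not tested.

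Mature myeloid cells had V segment RNA from several segments. Igkv totals of 252 and 246 FPKM came from 14 and 11 segments, led by Igkv5-39 (14.7%) and Igkv15-103 (41.7%), and were 25.5% and 26.2% of Igkc. Ighv totals were 103 and 36.3 FPKM, led by Ighv3-6 (43.5%) and Ighv7-1 (43.0%). Cd79a was at 3.58 and 2.89 FPKM and Jchain at 46.0 and 41.1 FPKM. The part of other cell types in these levels was not tested.

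At the single positive stages, low levels of several segments were seen. At 1 FPKM or more, iCD4-SP cells had 4, 4, 1 and 0 Igkv segments and CD4-SP cells had 8, 7 and 5. Totals were 17.0, 7.02, 1.17 and 0 FPKM in iCD4-SP, against 13.7, 16.1 and 18.2 FPKM in CD4-SP, and overlapped. In limma, 2 of 68 segments (2.94%, beside 26.4% of all genes tested, 14.0% higher and 12.4% lower) differed, Igkv1-88 and Igkv13-84, and both fell with overlapping values. Igkv1-88 was listed at 0 in iCD4-SP, against 0, 1.71 and 6.11 FPKM in CD4-SP. Neither passed with only these 2 groups in the fit or without CD4-SP library 3. Igkc was 193, 108, 3.12 and 2.07 FPKM in iCD4-SP, against 106, 122 and 150.4 FPKM in CD4-SP. Where an iCD4-SP library had more Igkc it also had the higher Igkv total. Of 7 B lineage markers, 1 rose and 2 fell in iCD4-SP, beside 26.4% of all genes tested. Of 6 marker genes of mature B cells, 0 rose and 0 fell. Cd79a had 0.304, 0.12, 0 and 0 FPKM in iCD4-SP, against 3.72, 1.84 and 2.48 FPKM in CD4-SP (-1.71 ± 0.26, limma adjusted p = 3.57e-07). Vpreb3 (-2.45 ± 0.43) and the surrogate light chain gene Igll1 (-2.46 ± 0.42) fell too. Cd79b, the partner of Cd79a, rose in iCD4-SP (2.40 ± 0.36). The part of B lineage cells in these V segment levels was not tested.

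In iCD8-SP all 4 libraries were at 0 for Igkv, against 6.62, 6.49 and 3.68 FPKM in CD8-SP, and no single segment passed in limma (0 of 68, beside 10.6% of all genes tested, 1 segment at an unadjusted p under 0.05). Igkc was at most 4.71 FPKM in iCD8-SP, against 77.2, 55.2 and 66.9 FPKM in CD8-SP. Of 7 B lineage markers, 2 fell in iCD8-SP (Cd79a and Cd22), and Cd79a had 0.139, 0.271, 0 and 0 FPKM in iCD8-SP, against 2.21, 2.31 and 1.72 FPKM in CD8-SP (-1.49 ± 0.26, limma adjusted p = 1.64e-05). Vpreb3 had 0, 0.42, 0 and 0 FPKM in iCD8-SP, against 7.85, 7.59 and 9.61 FPKM in CD8-SP (-3.09 ± 0.43), and the part of B lineage cells was not tested here either.

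The remaining stages had no segment past the threshold in limma. The background shares were 8.27% for Thy-iETP against Thy-ETP, 1.50% for iDN2 against DN2, 3.54% for iDN3 against DN3, 0.741% for iDN4 against DN4 and 10.4% for iDP against DP. At an unadjusted p under 0.05 there was 1 segment in each of the Thy-ETP and DN2 comparisons and 0 in the other 3.

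Thymic early T progenitors of both sources held low totals. Igkv totals were 9.89, 15.0 and 4.80 FPKM in Thy-iETP and 5.69 and 7.52 FPKM in Thy-ETP, and overlapped. In Thy-iETP library 2, the one above 10 FPKM, Igkv5-39 held 52.2%. Igkc was 80.5, 78.1 and 33.0 FPKM in Thy-iETP, against 127 and 49.6 FPKM in Thy-ETP.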

How the data were processed

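RNA was measured in 76 libraries, of which 75 were used. Per the submitters' processing notes, reads were handled with bcl2fastq, TopHat, Cufflinks 2.2.1 and Cuffnorm on the mouse build NCBIM37, and the values the authors deposited are FPKM. Parameters, the annotation and the normalization setting are not given in the sources used here, nor is how reads shared by similar segments were assigned. Symbols came from GENCODE vM21 and matched 32916 IDs (86.7%). FPKM totals per library ran from 667660 to 2004010, and 9828 to 12202 genes reached 1 FPKM. Groups were taken from the labels.

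The 17416 genes that reached 1 FPKM in 2 or more libraries were tested with limma 3.58.1 in R 4.3.3 on log2(FPKM + 1), which understates the change of low genes. The fit had 1 mean per group, trend and robust settings and 51 residual degrees of freedom, was two-sided and used an adjusted p of 0.05. Chain totals were compared with exact permutation tests, and over stages with 100000 resamples in numpy 2.4.6 (with Python 3.11.15). Sequence identity used Biopython 1.88, and figures matplotlib 3.10.9. The scripts were tested on simulated data. Named segments led a chain in a library with at least 10 FPKM, or were among the 5 highest or lowest fold changes past the threshold, and genes of companion lists could be named. The members and lists were chosen with earlier results of these data known. Alternatives were a pseudocount of 0.1, no filter, equal library totals, only the 2 groups, other detection levels, functional segments alone, each stage or library left out, and a replicate block. Some results are not reported here.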

Additional observations from a re-analysis of the deposited data

Results flagged for a closer look

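Within groups of 4 libraries, 1 library stood apart in several measures, by a gap to its nearest neighbour above the 95% critical value of Dixon's test. Of 43 groups of values checked, chance gives such a gap in about 5% where values are continuous. That rate does not hold for small counts or for values tied at 0: where the other 3 libraries are tied, any difference passes, so those gaps are given as values only. It does not hold either for the single segments checked in mature B cells. They were chosen because they led their chain in a library, for some a mature B library, so their gaps are also given as values only.

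In mature B cells, Igkv8-24 was at 13151 FPKM in 1 library, with 2046 FPKM in the next. Igkv5-39 reached 2559.7 FPKM (next 650.1), Ighv1-47 84.4 FPKM (next 4.45), Ighv1-49 74.4 FPKM (next 0) and Ighv3-6 32.3 FPKM (next 3.92). The number of Ighv segments at 1 FPKM or more was 6 in 1 mature B library and 7 in the other 3.

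In natural DP cells, 1 library had an Igkv total of 34.5 FPKM (next 1.86) from 7 segments (next 1), and an Ighv total of 3.82 FPKM from 1 segment (next 0). Its Igkc was 163 FPKM. In iDN1, 1 library had an Ighv total of 5.12 FPKM from 1 segment while the others were at 0. In iDN4, 1 library had an Igkv total of 0.971 FPKM while the others were at 0. In HSC, 1 library had an Igkv total of 4.98 FPKM from 1 segment with the others at 0, and 1 library had 0 Ighv segments where the others had 1.

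The induced minus natural difference in log2(Igkv total + 1) pointed in opposite directions at different stages with no overlap of libraries. It was 9.17 for BM-iETP against BM-ETP, -6.05 for iDN1 against DN1 and -2.69 for iCD8-SP against CD8-SP. The difference between stages was not tested.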

How the results depend on the processing

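When each fit held only the 2 groups compared, 9 segments were called for BM-iETP against BM-ETP, 26 for BM-iETP and 17 for mature B against pro-/pre-B cells, 0 for iDN1 against DN1 and 0 for iCD4-SP against CD4-SP, and 56 single-segment calls were lost and 52 kept. Leaving out 1 library moved these counts to between 7 and 15 for BM-iETP against BM-ETP, and to between 0 and 2 for iCD4-SP against CD4-SP. They moved between 0 and 1 for Thy-iETP against Thy-ETP (1 without Thy-iETP library 2) and for iDN2 against DN2 (1 without iDN2 library 2). A pseudocount of 0.1 gave 1 segment for iCD8-SP against CD8-SP and lost 10 single-segment calls. Equal totals and no filter left every count within 1.5 times and lost 2 calls each. No single-segment call reversed in any alternative. The mean stage difference in log2 Igkv total was -1.35 without the BM stage, 0.55 without DN1, 0.0284 without DP, 0.0493 without CD4-SP and 0.13 without CD8-SP, and between -0.435 and 0.0304 with 1 library left out (above 0 only without DN1 library 1). The difference in Igkv segment number was -0.157 at 0.1 FPKM and -0.708 without the BM stage, and that in Ighv level -0.0138 without it. The Ighv difference of iCD8-SP against CD8-SP was -0.16 with a pseudocount of 0.1, chosen after seeing the data. Median leading shares at a total of at least 1 FPKM were 74.2% in BM-ETP, 40.4% in Thy-iETP and 100% in DP. Same-numbered libraries did not deviate together (correlations of -0.05 to 0.05), and a replicate block left all 11 counts as they were, for example 15 for BM-iETP against BM-ETP. Causes of these shifts were not tested. Low totals rest on few fragments, and 259 annotated segments have no row under their symbol.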
